A study of Mus musculus with 4 samples.

Results

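Cytochrome P450 genes were compared between mouse kidney tubule cells of the genotypes KMS and KM, with 2 RNA libraries of each. A gene was a member when its symbol in the deposited table had the form Cyp, a family number, subfamily letters and a gene number, and Cyp24a1 and Cyp27b1 were left aside. This gave 47 of 18383 genes, in 11 families and 26 subfamilies, and 40 of them were among the 15002 genes that passed the filter on low counts. Another 8 rows with symbols that begin in Cyp lay outside the rule.

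KMS cells carried SETD2fl/fl, MYCfl/fl and KspCre/+, and KM cells carried MYCfl/fl and KspCre/+, so the MYC allele and the Cre transgene are shared by all 4 libraries. SETD2 encodes the histone methyltransferase that trimethylates lysine 36 of histone H3, and the promoter of kidney-specific cadherin drives KspCre in tubular epithelium. The cells were primary tubular cells of the kidney cortex of C57BL/6 mice aged 8 weeks, and the series compares MYC cells with and without SETD2. The series text differs from the sample labels: it speaks of triplicates, gives the age as a range, and names MYC on a SETD2-deleted background beside SETD2 deletion without MYC. The labels are followed here, with 2 samples per genotype. They do not state that these came from separate animals. However, the 2 libraries of a genotype differed in sex-linked RNA, as given below, so they were not from the same animal. Levels are given as CPM, the count of a gene divided by the adjusted library total and multiplied by 1e+06. Total counts were 9780050 and 8886496 in KMS and 18639040 and 14955148 in KM. In each genotype replicate 1 held much Xist RNA and almost no Y-linked RNA, and replicate 2 was the reverse, so the libraries are called female and male here. Sex is not stated in the labels. The KM libraries are described as F104 (replicate 1) and M93 (replicate 2), with letters that the labels do not explain. The 14 markers of the proximal tubule were detected in every library and summed to 20998 and 19585 CPM in the female and male KMS libraries, against 10529 and 7936 CPM in the female and male KM libraries. Markers of hepatocytes, the liver cells richest in P450 enzymes, summed to 127 and 128 CPM in KMS and 231 and 885 CPM in KM over the 5 analysed. Of these 5, 3 had negative and 2 positive log2 fold changes. Most of the sum in the male KM library was in the fibrinogen gene Fga, while in the female KM library Ttr, at 90.3 CPM, was close to it. Fga had 35.8 and 53.9 CPM in KMS and 97.5 and 625 CPM in KM, while Alb, which encodes albumin, had 18.8 and 7.77 CPM in KMS and 12.6 and 6.37 CPM in KM. In such bulk libraries, fewer cells of a type and less RNA per cell cannot be told apart. Setd2 had 58.3 and 49.2 CPM in KMS and 54.3 and 58.1 CPM in KM, a count over the whole gene that does not check a deletion of some exons. Myc had 6.10 and 2.19 CPM in KMS and 5.29 and 6.98 CPM in KM.

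P450 enzymes are haem proteins that insert an oxygen atom into lipids, steroids, vitamins and foreign chemicals, with electrons passed on from a reductase. In the kidney they sit mostly in the proximal tubule, where family 4 enzymes hydroxylate the ends of fatty acids and subfamilies 2c and 2j turn arachidonic acid into epoxides that act on vessels and on sodium transport. Many mouse P450 genes are known to respond to sex hormones, to fatty acids through PPAR-alpha, or to aromatic compounds through the Ahr receptor.

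RefSeq start sites on the build GRCm38.p6 were found for 36 of the 47 members, 30 of them tested. The members fell into those whose promoter was rich in the dinucleotide CG and those whose promoter was poor in it, and the sequences below show both kinds, with each CG in capitals. Each run is the stretch of the 250 bases before the start that no annotated transcript covers, read 5′ to 3′ on the strand of the gene. Cyp2j5, Cyp2j11 and Cyp4b1 are shown because they are CG-poor members with high values in KMS, and Cyp4v3, Cyp26a1 and Cyp1b1 because they are CG-rich members with low values in KMS. These examples were picked by their values. They leave out Cyp3a13, which had 1 CG and the lowest log2 fold change, -3.93. The tested members without a start site were Cyp2c44, Cyp2d12, Cyp2d22, Cyp2u1, Cyp4a10, Cyp4a14, Cyp4a31, Cyp4f17, Cyp7b1 and Cyp39a1. Cyp2a4 and Cyp2a5 are shown because they are neighbours of nearly the same sequence.
Cyp2j5 (chr4:96664172-96664369, minus strand): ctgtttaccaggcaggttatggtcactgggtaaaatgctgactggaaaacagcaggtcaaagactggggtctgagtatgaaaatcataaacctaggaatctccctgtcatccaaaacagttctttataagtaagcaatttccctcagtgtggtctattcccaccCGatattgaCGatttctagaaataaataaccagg
Cyp2j11 (chr4:96348694-96348930, minus strand): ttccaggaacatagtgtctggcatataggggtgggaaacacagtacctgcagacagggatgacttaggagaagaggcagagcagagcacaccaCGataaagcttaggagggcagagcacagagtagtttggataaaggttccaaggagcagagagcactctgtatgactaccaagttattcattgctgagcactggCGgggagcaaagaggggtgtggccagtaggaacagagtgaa
Cyp4b1 (chr4:115647724-115647971, minus strand): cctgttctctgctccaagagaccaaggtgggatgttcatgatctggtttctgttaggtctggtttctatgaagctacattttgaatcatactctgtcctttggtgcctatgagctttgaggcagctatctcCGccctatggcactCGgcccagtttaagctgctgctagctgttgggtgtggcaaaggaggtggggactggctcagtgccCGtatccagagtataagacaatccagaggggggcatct
Cyp4v3 (chr8:45333217-45333413, minus strand): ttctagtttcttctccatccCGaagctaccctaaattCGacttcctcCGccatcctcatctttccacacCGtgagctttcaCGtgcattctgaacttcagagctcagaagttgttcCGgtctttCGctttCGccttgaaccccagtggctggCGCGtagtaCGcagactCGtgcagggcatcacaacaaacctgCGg
Cyp26a1 (chr19:37697558-37697737, plus strand): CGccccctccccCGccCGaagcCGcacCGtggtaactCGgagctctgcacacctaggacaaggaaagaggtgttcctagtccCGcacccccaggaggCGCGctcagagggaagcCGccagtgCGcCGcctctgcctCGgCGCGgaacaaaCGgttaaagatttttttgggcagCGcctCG
Cyp1b1 (chr17:79715062-79715311, minus strand): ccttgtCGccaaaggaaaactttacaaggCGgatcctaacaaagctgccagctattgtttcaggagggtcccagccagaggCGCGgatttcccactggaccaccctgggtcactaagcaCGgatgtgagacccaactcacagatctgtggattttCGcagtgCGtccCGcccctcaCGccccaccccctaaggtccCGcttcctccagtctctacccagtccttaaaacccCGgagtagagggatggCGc
Cyp2a4 (chr7:26306942-26307168, plus strand): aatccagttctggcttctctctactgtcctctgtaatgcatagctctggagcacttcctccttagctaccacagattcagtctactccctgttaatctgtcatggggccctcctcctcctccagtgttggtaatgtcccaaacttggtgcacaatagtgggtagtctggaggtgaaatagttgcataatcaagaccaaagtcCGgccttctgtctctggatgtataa
Cyp2a5 (chr7:26835089-26835304, plus strand): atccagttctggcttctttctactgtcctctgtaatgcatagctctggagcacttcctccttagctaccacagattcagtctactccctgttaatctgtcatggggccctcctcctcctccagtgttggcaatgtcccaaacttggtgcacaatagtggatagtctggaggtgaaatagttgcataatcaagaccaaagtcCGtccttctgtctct

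Of the 30 tested members with a start site, 7 had at least 10 CG in the 250 bases. All 7 had negative log2 fold changes of KMS over KM, with a median of -0.76 and a range of -1.98 to -0.28, and they were negative in 6 female pairs and 7 male pairs. These were Cyp1b1, Cyp2r1, Cyp2s1, Cyp4v3, Cyp20a1, Cyp26a1 and Cyp46a1. Without the male KMS library, Cyp2r1 and Cyp46a1 were positive, at 0.13 and 0.08. The other 23 had a median of 0.80, with 17 positive and 6 negative values and a range of -3.93 to 3.53. Over all tested genes with a start site, the median was 0.005 for 7267 genes with at least 10 CG and -0.02 for 2994 genes with fewer. The threshold of 10 was chosen after the values were seen, and the split is a description with no test. The split also ran with level. The mean over the 4 libraries was at most 26.98 CPM (Cyp2s1) among these 7, while members with fewer CG reached 1344 CPM (Cyp4b1). Sign went with level too, with 19 of 26 members positive at a mean of at least 10 CPM, against 24 of all 40 tested. The part of level in the split was not tested. CG-rich promoters made up 23.3% of the 30 tested members with a start site and 70.8% of all tested genes matched. The letters TATAAA on the gene's own strand were in 6 of 36 member promoters, against 8.12% of 27025 promoters of the same length. GCGTG, the core that the Ahr receptor is known to bind, was on either strand in 13 of 36, against 28.2% of all.

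**Figure D1:**
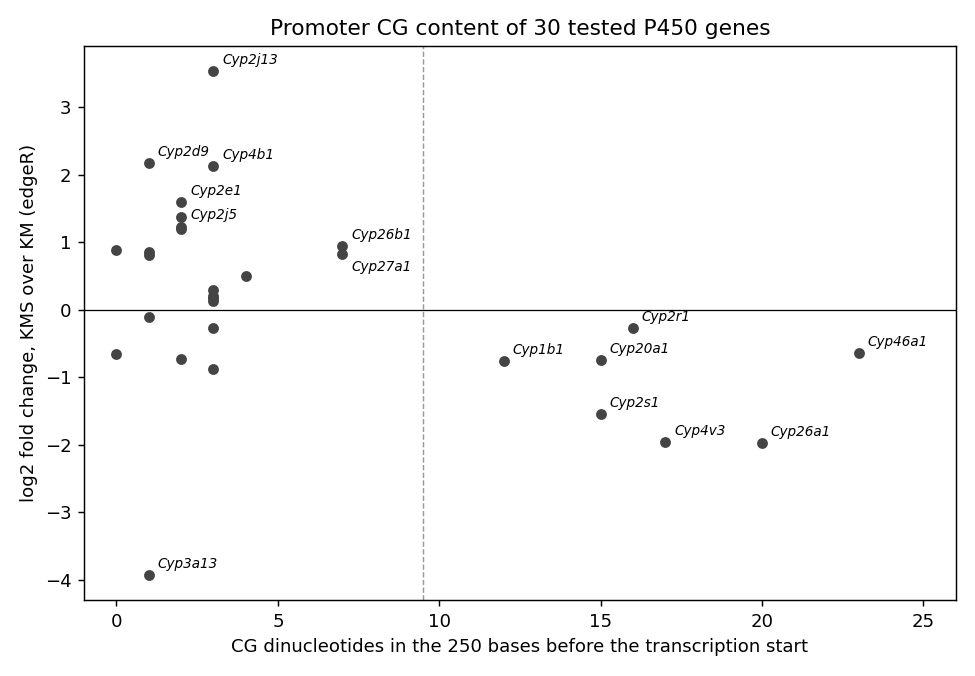
CG dinucleotides in the 250 bases before the start (horizontal axis) against the log2 fold change of KMS over KM from edgeR (vertical axis), 1 point for each of 30 tested P450 genes. The dashed line stands just below the threshold of 10, and the 7 points to its right lie between -1.98 and -0.28.

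Between the genotypes, no P450 gene passed the test on its own across all genes. With edgeR and genotype as the term, 0 of 40 members passed an adjusted p of 0.05, where 0.0333% of all tested genes did, and the lowest adjusted p was 0.0662. At an unadjusted p under 0.05 there were 12 members (30%), against 26.3% of all genes. Of these, 6 were higher (12.2% of all genes) and 6 lower (14.1% of all genes). Both KMS libraries lay above both KM libraries for 9 members (22.5%) and below them for 7 (17.5%), where 29% and 31.3% of all genes did so, and 24 members overlapped. The median log2 fold change over the 40 members was 0.19, with 24 positive and 16 negative, against -0.01 over all genes, and it was -0.11 without the female KMS library. Of the positive ones, Cyp4f17 and Cyp39a1 were negative with upper-quartile factors and with library totals, which left 22 positive. Among the 26 members with a mean of at least 10 CPM, 19 were positive and the median was 0.68, against 0.08 for 9279 genes of such levels. Both KMS libraries lay above both KM libraries for 8 of these 26 (30.8%), against 36.1% of genes of such levels. They lay below for 5 (19.2%), against 26.2%. With sex as a term in the edgeR model, 5 members passed. Cyp2d12 rose (1.93% of all genes rose), and Cyp4v3, Cyp2s1, Cyp3a13 and Cyp2c44 fell (3.5% of all genes fell). The DESeq2 Wald test called 8 members, 5 higher and 3 lower, and 11.8% of all genes. With sex as a term it called 6 members and 5.88% of all genes. In contrast, limma-voom called 0 members and 0.00667% of all genes. With 1 library left out, the count was 11 of 43 tested without the female KM library (11.5% of all genes) and 4 of 40 without the male KM library (1.14% of all genes). It was 0 without either KMS library, where no gene of all those tested passed. In the authors' deposited table, 2.73% of the same genes had an adjusted p under 0.05, among them 2 members, Cyp4v3 and Cyp2s1.

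**Figure D2:**
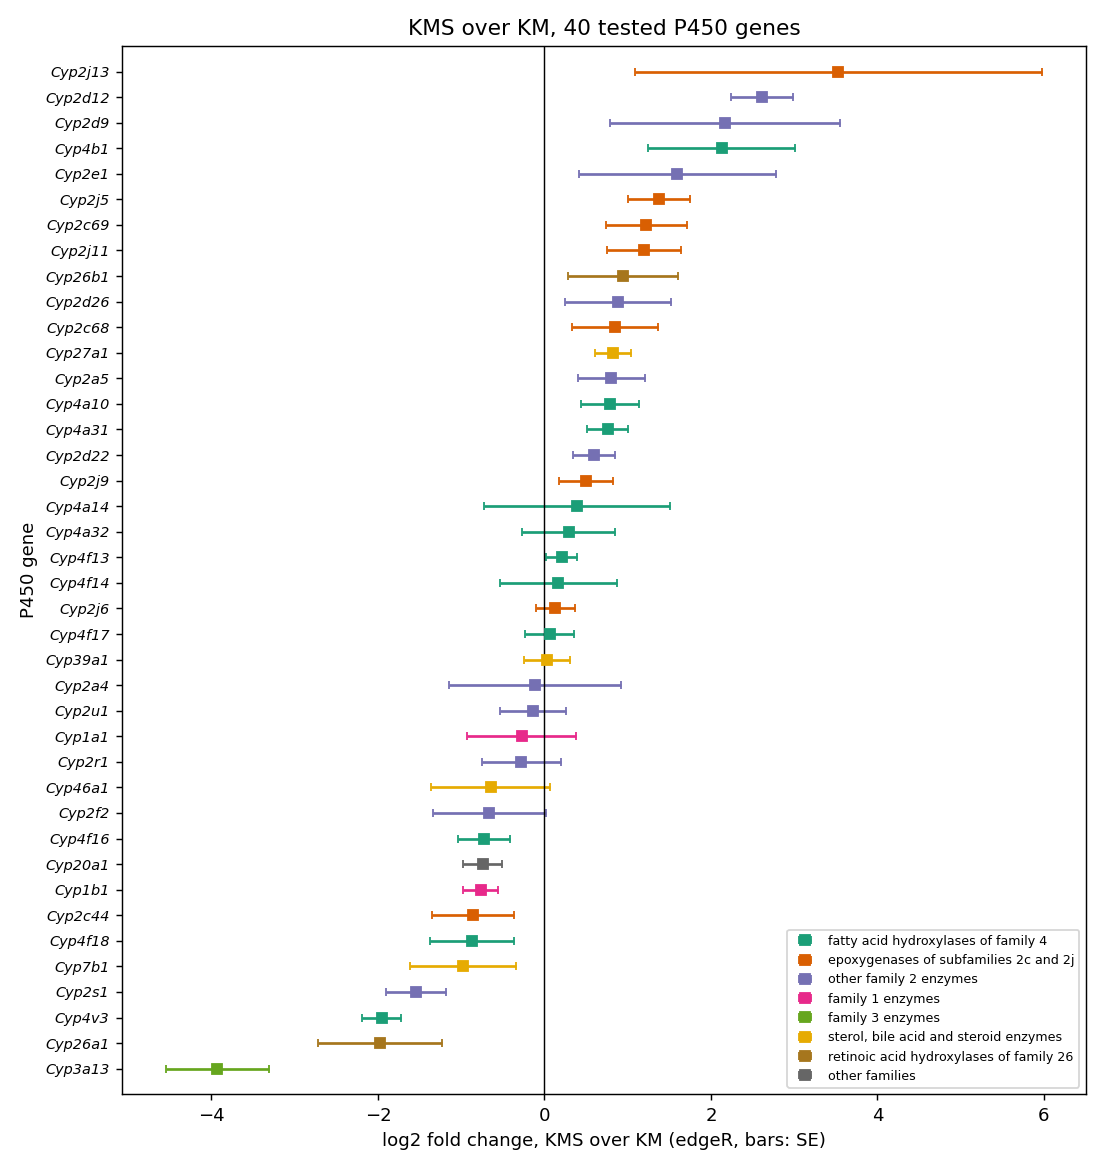
Log2 fold change of KMS over KM for the 40 tested P450 genes (points) with its standard error (bars), from edgeR with genotype as the term and coloured by role. Values run from -3.93 for Cyp3a13 to 3.53 for Cyp2j13, and the widest bars belong to genes whose 2 libraries of a genotype stood far apart.

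Summed over the members, P450 transcripts came to 4866 CPM in the female and 10596 CPM in the male KMS library, against 3055 CPM in the female and 3229 CPM in the male KM library. The male KMS library stood apart from the other 3. Its excess lay mainly in Cyp4b1 with 3853 CPM, Cyp2e1 with 2106 CPM and Cyp2j5 with 1930 CPM. The 5 most abundant members in each library held 72.0% and 83.4% of the sum in KMS and 62.3% and 67.3% in KM. Per kilobase of exon, the highest mean levels over the 4 libraries were 596 CPM per kb for Cyp4b1, 439 for Cyp2j5, 346 for Cyp2e1 and 230 for Cyp2d26. Cyp4a14 and Cyp4a10 followed at 123 and 120.5 CPM per kb, which is no difference beside their spread over libraries. The summed level of the proximal tubule markers was higher in both KMS libraries, with 13 of 14 markers positive and a median log2 fold change of 1.16. Higher values were not confined to this segment. All 8 markers for Henle's loop and the distal segments were positive, with a median of 1.47. They summed to 6235 and 3787 CPM in the female and male KMS libraries, against 3511 and 899 CPM in KM. Collecting duct markers had 3 positive and 4 negative values, and endothelial markers had 1 positive and 4 negative. The part of the proximal tubule level in the P450 sum was not tested.

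**Figure D3:**
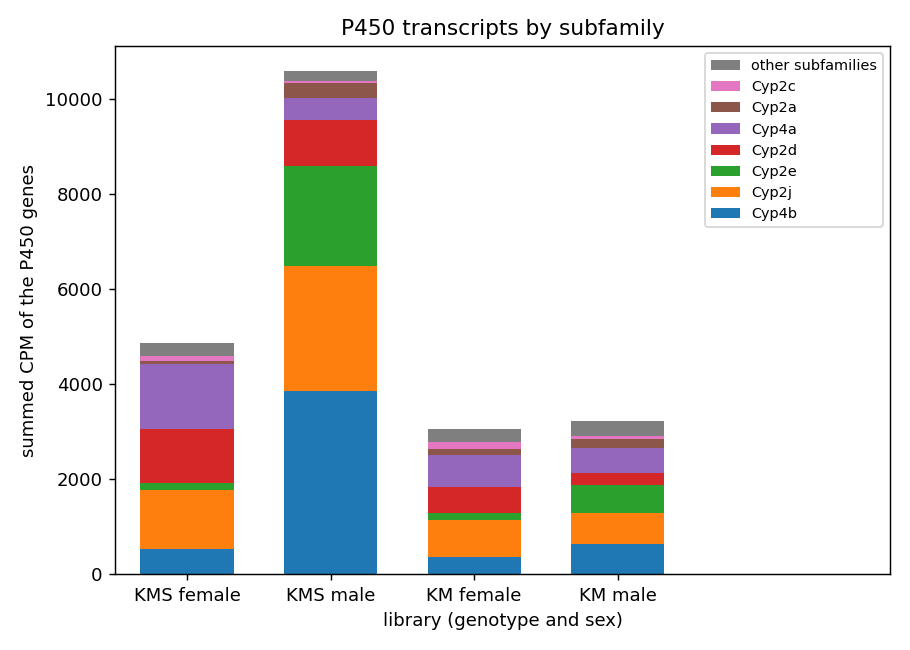
Stacked bars of the summed CPM of the P450 genes in each of the 4 libraries, split by subfamily. The male KMS bar reaches 10596 CPM, with the Cyp4b, Cyp2j and Cyp2e parts the largest, while the bars of the female KMS, female KM and male KM libraries reach 4866, 3055 and 3229 CPM.

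Family 4 enzymes, which hydroxylate fatty acids, had 13 rows, of which 11 were tested, 8 of these positive (7 where Cyp4f17 turned sign under another scaling) and 3 negative, with a median log2 fold change of 0.21. Cyp4b1 (chromosome 4, 115624725 to 115647723), which prefers fatty acids of medium chain length, had 525 CPM in the female and 3853 CPM in the male KMS library, against 370 and 630 CPM in the female and male KM libraries. The genotypes overlapped, and the male libraries were the higher of each genotype. On the log2 scale KMS over KM was 2.13 ± 0.88 (SE, edgeR adjusted p = 0.192), and 0.09 without the male KMS library. Cyp4a10, Cyp4a14, Cyp4a31 and Cyp4a32 are its neighbours on chromosome 4 and are fatty acid hydroxylases known as PPAR-alpha targets. Cyp4a31 had 247 and 221 CPM in the female and male KMS libraries, against 163 and 114 CPM in the female and male KM libraries. Cyp4a10 had 428 and 216 CPM in KMS, against 193 and 180 CPM in KM. For both genes the KMS libraries lay above the KM libraries, with log2 fold changes of 0.76 ± 0.24 (SE, edgeR adjusted p = 0.128) for Cyp4a31 and 0.79 ± 0.35 (SE, edgeR adjusted p = 0.212) for Cyp4a10, which was 0.25 without the female KMS library.

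Cyp4a14 (chromosome 4, 115486200 to 115496142) took no common direction. It had 692 CPM in the female and 32.9 CPM in the male KMS library, against 318 and 235 CPM in the female and male KM libraries. The male KMS library was the lowest of the 4 and the female KMS library the highest, with a log2 fold change of 0.39 ± 1.12 (SE, edgeR adjusted p = 0.852). With sex as a term it was -0.83, and without the female KMS library -3.03. The coding sequence of Cyp4a10 is identical to that of Cyp4a32 at 97.2% of positions, to that of Cyp4a31 at 96.6% and to that of Cyp4a14 at 77.1%, so reads may have been split between the closest of them. Their summed level was 1370 and 472 CPM in the female and male KMS libraries, against 676 and 530 CPM in the female and male KM libraries, which overlap.

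Cyp4v3 (chromosome 8, 45304944 to 45333216), the mouse counterpart of the human gene CYP4V2 of Bietti crystalline dystrophy, was lower in KMS. It had 7.86 and 6.07 CPM in the female and male KMS libraries, against 27.7 and 26.5 CPM in the female and male KM libraries, or 6.97 ± 1.26 CPM in KMS and 27.1 ± 0.87 CPM in KM (SD, n = 2 each). The gap between the genotypes was far wider than the gap within either. With genotype alone it had a log2 fold change of -1.96 ± 0.23 (SE, edgeR adjusted p = 0.0662), and it fell in the model with sex (edgeR adjusted p = 0.0114). The authors' deposited table gives it a log2 fold change of -1.93 with an adjusted p of 0.000415. Subfamily 4f, whose members hydroxylate leukotrienes and other fatty acids, summed to 57.5 and 45.2 CPM in KMS and 55.4 and 59.5 CPM in KM. Of its 5 tested members, 3 were positive and 2 negative. Cyp4f13 had 30.7 and 27.8 CPM in the female and male KMS libraries, against 26.8 and 24.0 CPM in the female and male KM libraries. Cyp4f18, which hydroxylates leukotriene B4 in mouse neutrophils, had 3.72 and 2.55 CPM in KMS and 3.51 and 8.08 CPM in KM, and its fold change moved to -0.15 (log2) without the male KM library. The 6 tested leukocyte markers were all negative, and the list summed to 223 and 133 CPM in KMS and 295 and 518 CPM in KM. Their part in the Cyp4f18 values was not tested. Cyp4f39 had 0 counts in both KMS libraries, which allows up to 0.310 and 0.364 CPM by counting error alone, and 2 and 22 counts in KM.

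**Figure D4:**
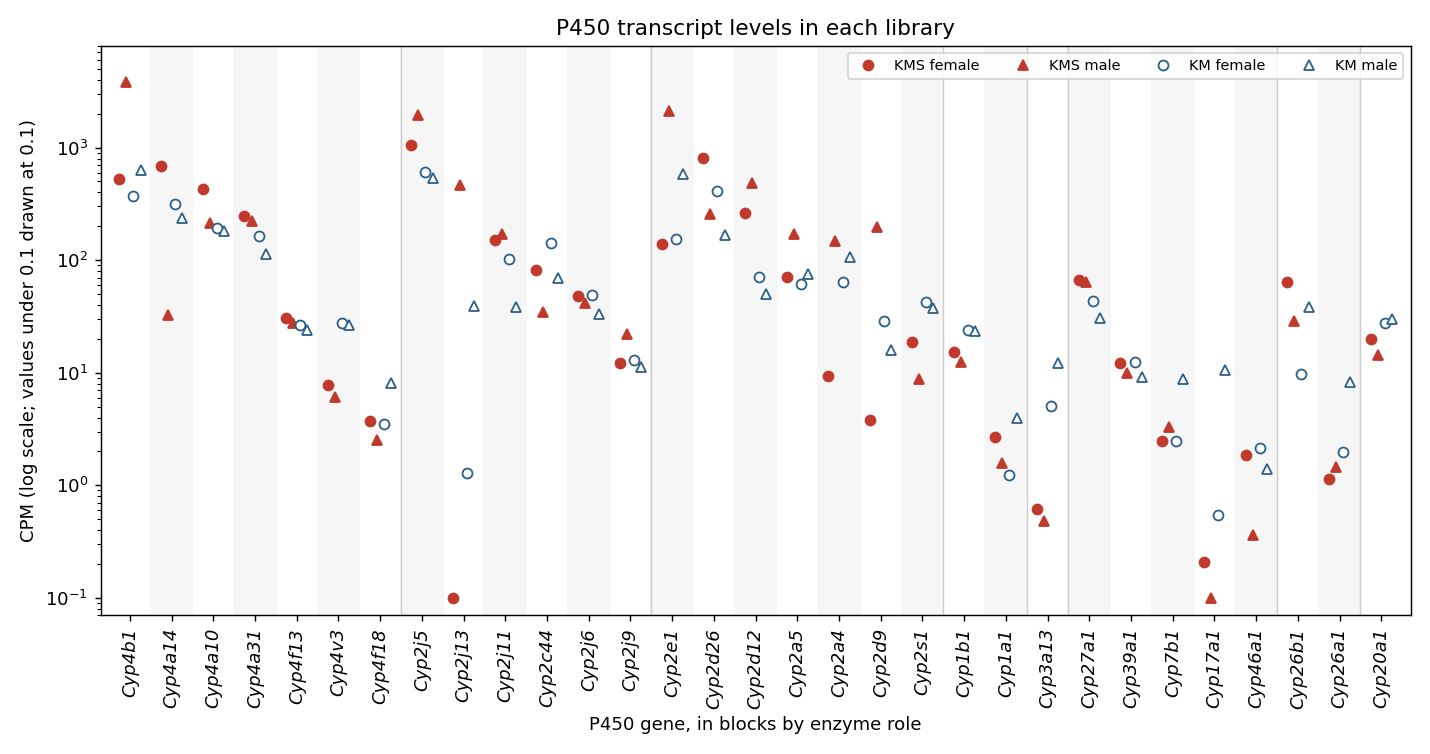
CPM of 31 P450 genes (log axis) in the female (circles) and male (triangles) libraries of KMS (filled) and KM (open), in blocks by enzyme role, with values under 0.1 CPM drawn at 0.1. The 4 libraries lie close together for Cyp4f13 and Cyp39a1, both filled symbols lie below both open ones for Cyp4v3, Cyp2s1 and Cyp3a13, and the male KMS library stands far from the rest for Cyp4b1, Cyp4a14, Cyp2j13 and Cyp2d9.

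Epoxygenases of subfamilies 2c and 2j had 10 rows, of which 8 were tested, 7 of these positive and 1 negative, with a median log2 fold change of 1.02. All 5 tested members of subfamily 2j were positive. Cyp2j5 (chromosome 4, 96628773 to 96664154), an epoxygenase known to be abundant in the mouse proximal tubule, had 1044 and 1930 CPM in the female and male KMS libraries, against 607 and 541 CPM in the female and male KM libraries. Cyp2j11 had 152 and 171 CPM in KMS, against 103 and 38.1 CPM in KM. Both had KMS above KM without overlap, with log2 fold changes of 1.37 ± 0.37 (SE, edgeR adjusted p = 0.103) for Cyp2j5 and 1.20 ± 0.44 (SE, edgeR adjusted p = 0.161) for Cyp2j11. Without the male KMS library Cyp2j5 was at 0.88, and Cyp2j11 was at 0.66 without the male KM library and passed at 2.09 without the female KM library. Cyp2j6 had 47.9 and 41.7 CPM in KMS and 48.7 and 33.0 CPM in KM, and Cyp2j9 had 12.2 and 22.0 CPM in KMS and 13.0 and 11.2 CPM in KM. Both overlapped, with log2 fold changes of 0.13 ± 0.23 for Cyp2j6, which was -0.12 without the male KM library, and 0.50 ± 0.33 for Cyp2j9 (SE), which was 0.03 without the male KMS library.

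Cyp2j13 (chromosome 4, 96027534 to 96077546), another gene of the same cluster, was higher in the male library of each genotype. It had 0 and 3838 counts in the female and male KMS libraries and 24 and 638 counts in the female and male KM libraries, or 466 CPM in male KMS, 1.3 CPM in female KM and 39.1 CPM in male KM. The 0 counts of the female KMS library allow up to 0.310 CPM by counting error alone. KMS over KM gave a log2 fold change of 3.53 ± 2.44 (SE, edgeR adjusted p = 0.393), and its direction rests on the male KMS library. Without that library KMS had 0 counts, and against the KM mean of 20.2 CPM a floor of 3 counts bounds the log2 fold change at -6.02 or lower, while the fitted value of -11.21 is no bound. Cyp2c44 (chromosome 19, 44005022 to 44029208), an arachidonic acid epoxygenase of the mouse kidney, ran the other way. It had 81.7 and 34.6 CPM in the female and male KMS libraries, against 142 and 69.2 CPM in the female and male KM libraries. The genotypes overlapped because the female library was the higher in each, while KMS was the lower within each sex. It fell in the model with sex (log2 fold change -0.90 ± 0.21 SE, edgeR adjusted p = 0.0497), just inside the threshold, and did not pass with genotype alone (edgeR adjusted p = 0.310), where its value ran to -1.57 without the female KMS library and to -0.24 without the female KM library. Cyp2c68 and Cyp2c69 had at most 5.28 CPM in any library, and Cyp2j8 and Cyp2c38 were not tested.

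The epoxides made by these enzymes are opened by epoxide hydrolases. Ephx2, the soluble hydrolase that acts on fatty acid epoxides, had 279 and 478 CPM in the female and male KMS libraries, against 145 and 161 CPM in the female and male KM libraries. Ephx1, the microsomal hydrolase, had 61.4 and 49.4 CPM in KMS and 84.2 and 73.1 CPM in KM. Neither overlapped between genotypes, Ephx2 being the higher in KMS and Ephx1 the lower. Neither passed with genotype alone (edgeR adjusted p = 0.0924 for Ephx2 and 0.167 for Ephx1), and Ephx2 rose in the model with sex (edgeR adjusted p = 0.0439).

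The other family 2 enzymes, which oxidise drugs, steroids and small solvents, had 13 rows, of which 11 were tested, 6 positive and 5 negative, with a median log2 fold change of 0.60. All 4 members of subfamily 2d were positive. Cyp2d12 (chromosome 15, 82555072 to 82560403) had 260 and 483 CPM in the female and male KMS libraries, against 71.5 and 49.6 CPM in the female and male KM libraries, or 371 ± 158 CPM in KMS and 60.5 ± 15.5 CPM in KM (SD, n = 2 each). KMS lay above KM in both sexes, by log2 ratios of 1.85 in females and 3.27 in males after 0.5 CPM was added. The KMS libraries lay 0.89 apart on that scale. In CPM the female gap was smaller than the gap between the KMS libraries. With genotype alone it had a log2 fold change of 2.62 ± 0.37 (SE, edgeR adjusted p = 0.0662), and it rose in the model with sex (edgeR adjusted p = 0.0139). Cyp2d9, a testosterone hydroxylase of male mouse liver that lies in the same cluster, had 3.83 and 198 CPM in the female and male KMS libraries, against 28.8 and 15.9 CPM in the female and male KM libraries. The 2 KMS libraries were the lowest and the highest of the 4, and its log2 fold change of 2.17 ± 1.38 (SE) was -2.53 without the male KMS library. Cyp2d26 had 813 and 257 CPM in KMS and 415 and 166 CPM in KM, higher in females and overlapping between genotypes (log2 fold change 0.88 ± 0.64 SE, and -0.14 without the female KMS library). Cyp2d22 had 50.2 and 34.7 CPM in KMS, both above the 32.1 and 24.1 CPM in KM. The coding sequence of Cyp2d12 is identical to that of Cyp2d9 at 92.2% of positions. Summed over the subfamily, the level was 1127 and 974 CPM in the female and male KMS libraries, against 547 and 256 CPM in the female and male KM libraries.

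Cyp2e1 (chromosome 7, 140763739 to 140774987), which oxidises ethanol and acetone, had 140 and 2106 CPM in the female and male KMS libraries, against 153 and 588 CPM in the female and male KM libraries. The genotypes overlapped, the female libraries were close together, and the male library was the higher in each genotype. This gave a log2 fold change of 1.60 ± 1.19 (SE, edgeR adjusted p = 0.428), which was -1.39 without the male KMS library. Cyp2a5 (coumarin hydroxylase) had 70.8 and 169 CPM in the female and male KMS libraries, against 61.5 and 75.9 CPM in the female and male KM libraries. The Cyp2a5 log2 fold change was 0.06 without the male KMS library. Cyp2a4 (testosterone hydroxylase) had 9.41 and 148 CPM in KMS, against 63.5 and 106 CPM in KM. The female KMS library was the lowest of the 4 for Cyp2a4 and not for Cyp2a5, and the log2 fold change of Cyp2a4, -0.11 ± 1.03 (SE), was 0.84 without it. The coding sequences of this pair are 98.45% identical, so reads could be assigned to either, and the 250 bases before their starts are 97.6% identical. Their sum was 80.2 and 317 CPM in KMS and 125 and 182 CPM in KM.

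Cyp2s1 (chromosome 7, 25802475 to 25816913), an epithelial P450 that responds to the Ahr receptor, was lower in KMS. It had 18.7 and 8.75 CPM in the female and male KMS libraries, against 42.6 and 37.8 CPM in the female and male KM libraries, or 13.7 ± 7.05 CPM in KMS and 40.2 ± 3.36 CPM in KM (SD, n = 2 each). The genotypes did not overlap. With genotype alone its log2 fold change stood at -1.54 ± 0.36 (SE, edgeR adjusted p = 0.0922), and it fell in the model with sex (edgeR adjusted p = 0.0218). The authors' deposited table gives a log2 fold change of -1.52 with an adjusted p of 0.00341. Cyp2u1, the vitamin D hydroxylase gene Cyp2r1 and Cyp2f2 had at most 4.26 CPM in any library, with log2 fold changes from -0.66 to -0.14 (those of Cyp2u1 and Cyp2r1 were 0.14 and 0.13 without the male KMS library), and Cyp2ab1 and Cyp2b10 were not tested.

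Family 1 enzymes, the classic targets of the Ahr receptor, were both negative by value. Cyp1b1, which oxidises oestrogens and aromatic hydrocarbons, had 15.4 and 12.5 CPM in the female and male KMS libraries, against 23.8 and 23.7 CPM in the female and male KM libraries. KMS lay below KM, with a log2 fold change of -0.76 ± 0.21 (SE, edgeR adjusted p = 0.106). Cyp1a1 had 2.69 and 1.58 CPM in KMS and 1.24 and 3.98 CPM in KM. The genotypes overlapped, and its log2 fold change of -0.27 ± 0.65 (SE) was 0.79 without the male KM library. Ahr itself had 11.3 and 6.07 CPM in KMS and 15.7 and 21.5 CPM in KM (edgeR adjusted p = 0.131). The 4 tested Ahr targets outside the P450 family were all positive, with a median of 0.68. With edgeR 0 passed, also at an unadjusted p under 0.05, where 26.3% of all genes did. Aldh3a1, another Ahr target, was not tested, with 0 counts in both KMS libraries and 13 and 140 counts in the female and male KM libraries.

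Cyp3a13 (chromosome 5, 137892932 to 137921619), the one family 3 gene among the members, had the lowest fold change of the 40. It had 0.62 and 0.49 CPM in the female and male KMS libraries, against 5.02 and 12.2 CPM in the female and male KM libraries, from 6 and 4 counts in KMS and 93 and 200 counts in KM. The genotypes did not overlap. With genotype alone its log2 fold change stood at -3.93 ± 0.62 (SE, edgeR adjusted p = 0.0697), and it fell in the model with sex (edgeR adjusted p = 0.0143). At 6 and 4 counts the KMS level is imprecise.

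Sterol, bile acid and steroid enzymes had 5 rows, of which 4 were tested, 2 positive and 2 negative. Cyp27a1, the mitochondrial sterol 27-hydroxylase, had 66.7 and 63.5 CPM in the female and male KMS libraries, against 43.3 and 30.5 CPM in the female and male KM libraries. KMS lay above KM, with a log2 fold change of 0.82 ± 0.22 (SE, edgeR adjusted p = 0.102). Cyp39a1, an oxysterol hydroxylase, had 12.2 and 9.96 CPM in KMS and 12.5 and 9.18 CPM in KM, a log2 fold change of 0.03 ± 0.28 (SE) that was negative under both other scalings named above. Cyp7b1, an oxysterol and androgen hydroxylase, had 2.48 and 3.28 CPM in KMS and 2.48 and 8.88 CPM in KM. Its male KM library was the highest of the 4, and its log2 fold change of -0.98 ± 0.64 (SE) was 0.21 without that library. Cyp46a1, the cholesterol 24-hydroxylase, had 1.86 and 0.36 CPM in KMS and 2.16 and 1.41 CPM in KM, and its log2 fold change of -0.65 ± 0.72 (SE) was 0.08 without the male KMS library. Cyp17a1, a steroid hydroxylase of the adrenal and gonads, was not tested, with 2 and 0 counts in the female and male KMS libraries and 10 and 172 counts in the female and male KM libraries. The adrenal cortex markers with a row summed to 22.3 and 20.04 CPM in KMS and to 26.1 and 72.3 CPM in KM, and the highest sum, in the male KM library, was carried by Akr1b7 with 48.2 CPM there. Star had 1.65 and 0.85 CPM in KMS and 1.84 and 1.29 CPM in KM. Their part in the Cyp17a1 counts was not tested.

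Retinoic acid is cleared by the enzymes of family 26, and the 2 members had values of opposite sign. Cyp26b1 had 63.7 and 28.9 CPM in the female and male KMS libraries, against 9.77 and 38.5 CPM in the female and male KM libraries, with KMS the higher in females alone. Cyp26a1 had 1.14 and 1.46 CPM in KMS, against 2.00 and 8.27 CPM in KM. The log2 fold changes were 0.94 ± 0.66 for Cyp26b1 (SE, edgeR adjusted p = 0.398) and -1.98 ± 0.75 for Cyp26a1 (SE, edgeR adjusted p = 0.166). Without the male KM library Cyp26a1 was at -0.62 and Cyp26b1 passed at 2.25, and without the female KM library Cyp26a1 passed at -2.66 and Cyp26b1 was at 0.28. Cyp20a1, a P450 of unknown substrate, had 20.1 and 14.3 CPM in KMS, below the 27.7 and 29.9 CPM in KM (log2 fold change -0.74 ± 0.23 SE, edgeR adjusted p = 0.123). Among markers of other cells, those of fibroblasts summed to 17.2 and 18.0 CPM in KMS and 48.7 and 93.6 CPM in KM, with all 4 tested markers negative. The share of these cells in the lower P450 values was not tested.

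Within each sex, P450 genes had larger absolute differences between the genotypes than all tested genes had, by their medians. The median absolute log2 ratio of KMS over KM, after 0.5 CPM was added, over the 40 members was 0.61 in females and 1.01 in males, against 0.33 in females and 0.52 in males over all tested genes. In 9 of 40 members (22.5%) the female and male pairs had opposite signs and lay at least 1 apart, against 6.06% of all genes. Those higher in KMS only by the male pair were Cyp2d9, Cyp2j13, Cyp2a4, Cyp2e1 and Cyp2j9, and those higher only by the female pair were Cyp4a14, Cyp26b1, Cyp1a1 and Cyp4f18. For Cyp2e1, Cyp2j9 and Cyp4f18 the female pair differed little, with log2 ratios of -0.13, -0.08 and 0.08. Each pair is 1 library against 1, so no difference between sexes could be tested for these genes.

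**Figure D5:**
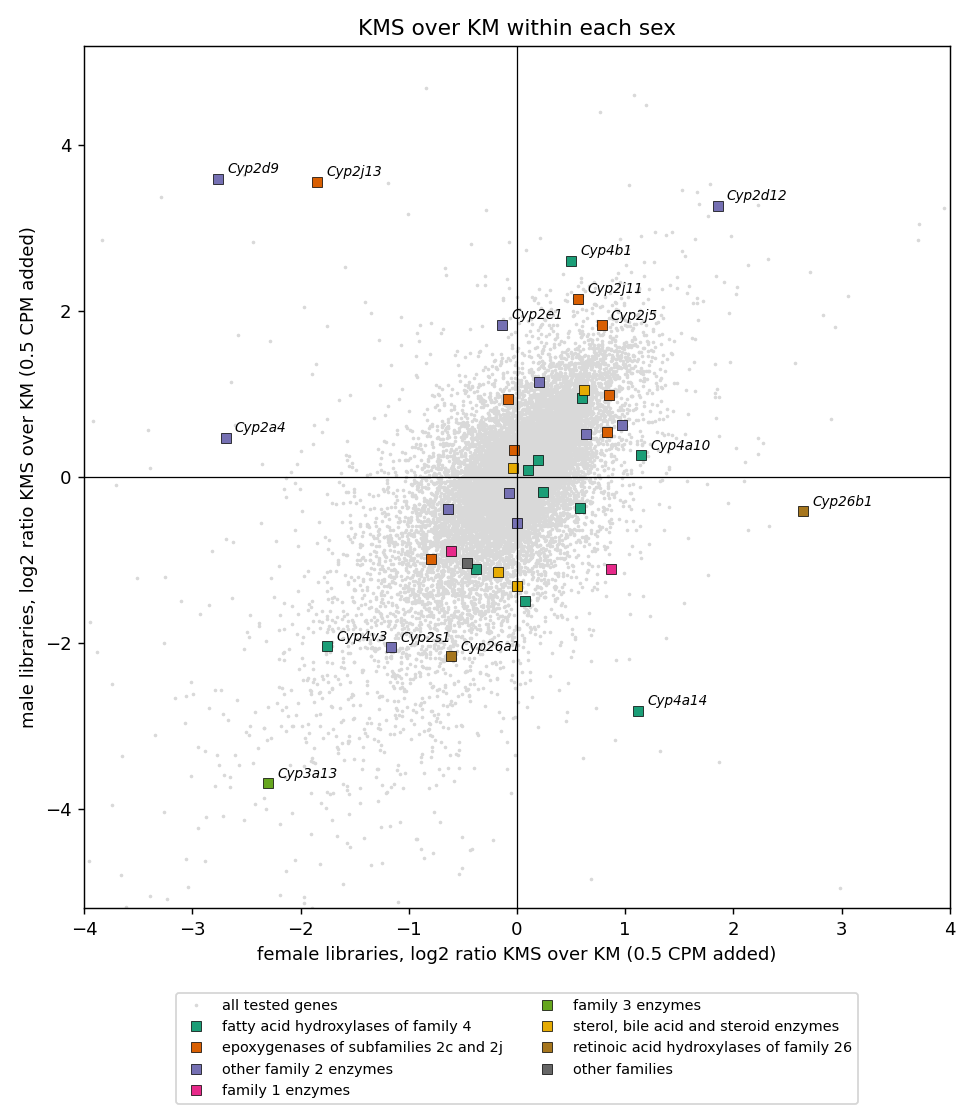
Log2 ratio of KMS over KM in the female pair (horizontal) and the male pair (vertical), after 0.5 CPM was added, for the 40 tested P450 genes (squares, coloured by role) over all tested genes (grey; those beyond the axes are not drawn). Cyp2d12, Cyp4v3, Cyp2s1 and Cyp3a13 lie in the quadrants where both pairs have the same sign, while Cyp2d9, Cyp2j13, Cyp2a4 and Cyp4a14 lie in those of opposite sign.

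Several members differed widely between the male and the female library of a genotype, above all in KMS. A difference of at least 4-fold between the male and the female library, after 0.5 CPM was added to both, was found for 6 of 40 members within KMS, against 0.68% of all genes. Within KM it was found for 1 of 40, against 1.32% of all genes. In KMS the male library was the higher for Cyp2j13, Cyp2d9, Cyp2e1, Cyp2a4 and Cyp4b1 and the lower for Cyp4a14. In KM the single gene was Cyp2j13, again higher in the male. With nothing added, 2 genes of low level also passed 4-fold, Cyp46a1 in KMS (higher in the female) and Cyp26a1 in KM (higher in the male). Both male libraries lay above both female libraries for 7 members (9.47% of all genes) and below them for 12 (11.7% of all genes). In the edgeR model with both terms, 0 of 40 members passed for sex, against 0.173% of all genes higher and 0.0333% lower in males, and the lowest adjusted p was 0.0871 for Cyp2j13 (edgeR). At an unadjusted p under 0.05, 7 were higher in males (2.98% of all genes) and 3 lower (2.94% of all genes). Across the 40 members, the male minus female difference in KMS had the sign of that in KM for 29. Over all genes without 5 sex-linked RNAs, it did so for 7270 of 14997. The members had Pearson's r = 0.574 and Spearman's rho = 0.351, against r = 0.0657 and rho = -0.0095 over those genes. These are correlations across genes of the same 4 libraries, and genes are not independent replicates.

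Genes outside the P450 family that androgens are known to induce in mouse kidney were also highest in the male KMS library. The 6 with a tested row summed to 487 and 16814 CPM in the female and male KMS libraries, against 1858 and 1216 CPM in the female and male KM libraries. In all but the female KMS library, where Odc1 led, most of this was Kap, the kidney androgen-regulated protein gene, with 56.7 and 14945 CPM in KMS and 1482 and 829 CPM in KM. Odc1, the first enzyme of polyamine synthesis, had 373 and 1028 CPM in KMS and 317 and 285 CPM in KM. Acsm3 had 4.03 and 387 CPM in KMS and 2.16 and 17.8 CPM in KM. Slco1a1, an organic anion transporter, had 0.10 and 277 CPM in KMS and 0.32 and 1.04 CPM in KM, and rose in the model with sex (edgeR adjusted p = 0.0325). In this list 5 of 6 values were positive, and the male KMS library was the highest for all but Gusb. In edgeR with genotype alone 0 genes passed, and 2 had an unadjusted p under 0.05, as did 26.3% of all genes. What this library's levels owe to its animal was not tested.

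Genes that serve or control P450 enzymes are given by list. Beside the counts at an unadjusted p under 0.05, 26.3% of all tested genes were under it with edgeR. Beside those that passed in the model with sex, 1.93% of all genes rose and 3.5% fell. Of the electron donors and partners, 6 of 8 tested were positive (5 with upper-quartile factors or library totals, where Fdxr turned sign), with a median of 0.35, and 0 passed with edgeR (3 at an unadjusted p under 0.05). Por, the reductase of all microsomal P450 enzymes, had 6.41 and 4.86 CPM in KMS and 7.13 and 5.63 CPM in KM, while Cyb5b, a cytochrome b5, had 518 and 615 CPM in KMS and 374 and 360 CPM in KM. Cyb5r3, its reductase, had 153 and 203 CPM in KMS and 122 and 121 CPM in KM, and Pgrmc1, a haem-binding partner, had 276 and 208 CPM in KMS and 215 and 171 CPM in KM. Among the 12 genes of haem synthesis and breakdown, 11 were positive (10 with library totals), with a median of 0.44, and 0 passed with edgeR (6 at an unadjusted p under 0.05). Alas1, the rate-limiting enzyme of haem synthesis, had 139 and 94.6 CPM in KMS and 95.8 and 110 CPM in KM. Of the regulators, 15 of 23 were positive (14 with library totals), with a median of 0.28, and 0 passed in edgeR with genotype alone (9 at an unadjusted p under 0.05). Hnf4a, a nuclear receptor of the proximal tubule, had 619 and 738 CPM in KMS and 429 and 287 CPM in KM. In the model with sex, 2 regulators fell. Esr1, the oestrogen receptor gene, had 1.86 and 2.79 CPM in KMS and 9.61 and 35.9 CPM in KM (edgeR adjusted p = 0.0112 with sex). Cebpb had 13.4 and 15.8 CPM in KMS and 24.0 and 55.8 CPM in KM (edgeR adjusted p = 0.0395 with sex). Ppara, the fatty acid receptor, had 212 and 162 CPM in KMS and 140 and 80.7 CPM in KM. Its targets outside the P450 family were positive for 11 of 12, with a median of 0.78. With genotype alone 0 passed in edgeR (6 at an unadjusted p under 0.05), and 1 rose in the model with sex. This was Angptl4, with 62.3 and 58.2 CPM in KMS and 12.1 and 8.94 CPM in KM (edgeR adjusted p = 0.0025 with sex).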

How the data were processed

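Polyadenylated RNA was sequenced as paired reads of 150 bases from a directional library, per the labels' protocols. Tools listed in the submitters' processing notes, with no role for any, are HISAT2, StringTie, FastQC, MACS2 2.1.1, Trimmomatic 0.35 and cutadapt 1.9.1, and the build is GRCm38 (mm10). No source used here gives the read counter or its use of strand. The authors deposited raw read counts per gene and library. Their table also holds a mean signal per genotype, its fold change as a ratio, a log2 fold change and an adjusted p-value, per the file headers, from a test that no source used here names. From it, the log2 and p values of named genes were used for comparison alone. The second sheet was not used.

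Libraries were grouped by the labelled genotype, KMS with 2 and KM with 2. The test was the quasi-likelihood F test of edgeR 4.0.16 (R 4.3.3) with TMM factors and genotype as the term, positive meaning higher in KMS. Low counts were removed by filterByExpr at a minimum count of 10 and a minimum total of 15, which kept 15002 genes, over which p-values were adjusted by Benjamini-Hochberg, with a threshold of 0.05. CPM is the count over the TMM-adjusted total, times 1e+06, and ratios within a sex were taken after 0.5 CPM was added. Sex was read from Xist and Y-linked counts. The model with sex as a term equals a replicate block. DESeq2 1.42.0, limma-voom (limma 3.58.1), other scalings and filters and each library left out were alternatives. Only the edgeR models with and without sex were tried on simulated data, as a check of the code. An exact permutation test over 2 against 2 libraries cannot go below p = 0.333, so none was used. KM libraries were 1.80 times as deep as KMS on average, 3 counts corresponded to 0.310 and 0.364 CPM in KMS and to 0.162 and 0.184 CPM in KM, and such limits cover counting error alone. Every p-value reflects only how far these libraries vary. The 2 libraries of a genotype differ in sex, so this variation is not technical alone. Because the use of strand is not known, overlapping and antisense genes could share reads. Promoter windows came from RefSeq on GRCm38.p6, and coding sequences from GENCODE. Cyp2c44 is listed there as Cyp2c23.

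The members and gene lists were chosen with earlier results of these data known. Values in every library are given for members that passed in the model with genotype or with sex, for up to 5 members of highest mean CPM (at least 1 CPM) in each of 8 role groups, and for members whose sex pairs had opposite signs at least 1 apart. From each pathway list, genes that passed and up to 3 of highest mean CPM were eligible for naming. Outside this rule, Por, Ahr, Ppara and the low-count genes named for their counts were chosen after their values were seen. Cyp2d22, Cyp4a12a, Cyp4a12b and the marker genes given singly (Fga, Ttr, Alb, Akr1b7, Star, Slc7a13, Slc22a7 and Slc34a1) were also named outside it.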

Additional observations from a re-analysis of the deposited data

Results flagged for a closer look

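For 9 P450 genes, the female and the male pair of libraries had ratios of KMS over KM of opposite sign. The differences that follow are the log2 ratio of the male pair minus that of the female pair. The difference was 6.36 for Cyp2d9, 5.40 for Cyp2j13, 3.17 for Cyp2a4, 1.97 for Cyp2e1 and 1.02 for Cyp2j9, where KMS was above KM in males and below it in females. It was -3.93 for Cyp4a14, -3.05 for Cyp26b1, -1.98 for Cyp1a1 and -1.57 for Cyp4f18, where KMS was below KM in males and above it in females. With 1 library in each sex and genotype, these differences were not tested. Cyp1a1 and Cyp4f18 had under 10 CPM in every library. The female pair differed little for Cyp2e1, Cyp2j9 and Cyp4f18, with log2 ratios of -0.13, -0.08 and 0.08, so its sign is uncertain there.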

How the results depend on the processing

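The count of P450 genes that passed was 0 with edgeR and genotype alone. It was 0 under the other scalings and filters and with limma-voom (0.00667% of all genes), 8 with the DESeq2 Wald test (11.8% of all genes), 5 with the replicate block, 6 with DESeq2 and sex (chosen after seeing the data, 5.88% of all genes), and from 0 to 11 with each library left out in turn (0% to 11.5% of all genes), where the lone library of a genotype is assumed to vary like the others. With the replicate block, 1.93% of all genes rose and 3.5% fell. Replicate number and sex coincide in both genotypes, so any other pairing by number cannot be told apart from sex. The male minus female differences of KMS and KM correlated across all genes at 0.0657 without 5 sex-linked RNAs, and across the 40 members at 0.574. The median log2 fold change of 0.19 was 0.12 with upper-quartile factors, 0.080 with library totals, 0.10 with limma-voom, 0.092 with DESeq2 and sex, and from -0.11 to 0.28 with each library left out. Library totals moved the median of all genes to -0.13. Single genes turned sign as follows, and the cause was not tested. Cyp2j13 was -0.79 with limma-voom and -1.28 with DESeq2 and sex. Cyp4a14 was -0.89 with limma-voom, -0.83 with the replicate block and -0.85 with DESeq2 and sex. Cyp4f17 was -0.0022 with upper-quartile factors and -0.053 with library totals, and Cyp39a1 was -0.036 and -0.080 under the same settings. With each library left out in turn, log2 fold changes ran for Cyp2j13 from -11.21 (fitted against 0 counts, no bound) to 7.49, Cyp2j6 from -0.12 to 0.45, Cyp1a1 from -0.87 to 0.79, Cyp4a14 from -3.03 to 1.34, Cyp4a32 from -0.61 to 0.85, Cyp4f14 from -0.55 to 0.94, Cyp4f17 from -0.20 to 0.32, Cyp2a4 from -3.15 to 0.84, Cyp2d26 from -0.14 to 1.70, Cyp2d9 from -2.53 to 3.18, Cyp2e1 from -1.39 to 2.89, Cyp2r1 from -0.81 to 0.13, Cyp2u1 from -0.43 to 0.14, Cyp39a1 from -0.17 to 0.28, Cyp46a1 from -2.23 to 0.076 and Cyp7b1 from -1.61 to 0.21.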

Other observations

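Some Cyp rows lay outside the rule because their symbols end in a letter or lack one. Cyp4a12a, the enzyme known to make most 20-HETE in male mouse kidney, had 10.9 and 304 CPM in the female and male KMS libraries, against 4.86 and 11.9 CPM in the female and male KM libraries (log2 fold change 4.23, edgeR adjusted p = 0.136). Its neighbour Cyp4a12b had 10.8 and 27.9 CPM in KMS and 7.29 and 6.86 CPM in KM. The coding sequences of this pair are 98.6% identical, so reads could be assigned to either. For both genes the male KMS library was the highest of the 4, and KMS lay above KM within each sex. Slc7a13, a transporter known from the last segment of the male proximal tubule, had 0.41 and 388 CPM in KMS and 1.13 and 14.5 CPM in KM, with the same library the highest. It is 1 of the 14 proximal tubule markers, named outside the naming rule, and others of the list differed. Slc22a7 had 1.14 and 5.34 CPM in KMS and 22.9 and 0.31 CPM in KM. Slc34a1 was highest in the female KMS library, with 6579 and 5411 CPM in KMS and 2815 and 2236 CPM in KM.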
